A study of Mus musculus with 3 samples.

Results

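The genes described are 10 receptors that steer blood cells, out of 31448 annotated genes (21938 of them protein-coding). They are 9 receptors for chemokines, Cxcr4, Cxcr3, Cxcr2, Cxcr5, Ccr1, Ccr2, Ccr7, Ccr9 and Ackr3, and S1pr1, a receptor for the lipid sphingosine 1-phosphate (S1P). They were listed by name, as the receptors around Cxcr4 and Cxcr3, and not by a cut on values. Earlier results of these data were known when they were listed. Chromatin accessibility was read at the promoter of each gene, at open sites within 20 kb, and over the gene body plus 2 kb upstream.

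Chemokines are small secreted proteins that attract cells along a gradient, and their receptors span the membrane and signal through inhibitory G proteins. In the bone marrow, stromal cells make CXCL12, which holds hematopoietic stem cells (HSCs) in place through CXCR4, while S1P in the blood draws cells out through S1PR1. ACKR3 binds CXCL12 too and takes it up rather than signalling through G proteins, and CXCR3, also called CD183, binds CXCL9, CXCL10 and CXCL11 and is best known from activated T cells.

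The study profiled long-term HSCs from the bone marrow of wild-type C57BL/6 (C57BL/6J in the study's methods) female mice aged 24 months by DOGMA-seq, a droplet method in which each cell yields open chromatin (ATAC-seq), RNA and counts of antibody tags. Cells were enriched for c-Kit and sorted as CD34- CD48- CD150+ cells among those with c-Kit and Sca-1 and no lineage markers, with no other genotype, treatment or age among the samples used here. The 3 libraries (ATAC, gene expression and antibody tags) came from 1 preparation, so there is 1 sample, no test between groups of cells was made, and every interval below is a 95% interval that covers counting error only. The sources used here do not give the number of mice in the preparation, and the matrix of RNA counts per gene was not analysed here.

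Of 4369 barcodes called as cells, 3724 had antibody counts, and the 3629 with at least 10 summed tags were kept. They held 38498362 nuclear ATAC fragments, with a median of 10287 per cell (3853 to 45069), and 114345 tags, with a median of 29 per cell. An excess of overlapping fragments, a possible sign of doublets, was seen in 253 kept cells. The mark was not scaled by depth, and these cells were kept in all values except where stated. Chromatin at marker genes was checked against the sort. An open site, a stretch with at least 10 times the genome's mean of insertions, lay in the promoter of 9 of 10 HSC marker genes. This held for 0 of 6 T cell and 0 of 4 NK cell markers, 2 of 5 B cell, 3 of 6 myeloid, 2 of 5 erythroid and 4 of 5 megakaryocyte markers, and 3 of 5 stromal and endothelial ones. Over all protein-coding promoters the share with an open site was 60.9%. A count near that share, as for the stromal and endothelial list, says little about the sort. The HSC markers had a median of 9.92 fragments per 100 cells, against 10.5 over all protein-coding promoters. Mecom was the HSC marker with no open site at its annotated gene start, at 0.524 fragments per 100 cells.

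Sequences are shown first for sites that carry the account, and none is printed for Ccr7, Ccr9 or Ccr2. The promoters are those of the 3 receptor genes whose own start was most open. The other windows are at the summit of the main site at Cxcr3, Cxcr2 and Ccr1, and of the strongest intergenic site near Cxcr5. All were read from the GRCm38 (mm10) genome, 5′ to 3′ on the strand of the named gene. Promoters are the 250 bases that end 1 base before the gene start, and sites are 200 bases about the summit. Capitals mark matches, on either strand, to short motifs of blood and general transcription factors. The letters searched were AGATAA for the GATA factors, TGTGGT for RUNX, AGGAAG for ETS factors and TGANTCA for the factor AP-1. They were also GGGCGG for the box of SP and KLF proteins (the GC box), CCAAT for the box of the factor NF-Y and TGACGTCA for the cyclic AMP response element. CAGATG was searched for an E-box and ACGTG for the core of a hypoxia response element. The CTCF core was searched as a single letter pattern that allows a choice of bases at some positions. No motif in the list contains another, though matches may overlap in the sequence.
Cxcr4 promoter (chr1:128592294-128592543, minus strand): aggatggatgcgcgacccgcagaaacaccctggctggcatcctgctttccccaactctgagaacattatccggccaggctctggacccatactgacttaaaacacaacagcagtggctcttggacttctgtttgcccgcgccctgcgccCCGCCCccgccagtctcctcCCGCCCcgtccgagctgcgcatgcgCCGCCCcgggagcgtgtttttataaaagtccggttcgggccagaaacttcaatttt
Ackr3 promoter (chr1:90203730-90203979, plus strand): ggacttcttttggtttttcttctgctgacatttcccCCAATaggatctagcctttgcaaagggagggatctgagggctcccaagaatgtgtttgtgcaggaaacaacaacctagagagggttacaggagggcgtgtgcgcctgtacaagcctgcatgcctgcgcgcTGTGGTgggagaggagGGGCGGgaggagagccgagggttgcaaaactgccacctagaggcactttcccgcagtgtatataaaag
S1pr1 promoter, which crosses an exon of the gene model Gm9889 (chr3:115715073-115715322, minus strand): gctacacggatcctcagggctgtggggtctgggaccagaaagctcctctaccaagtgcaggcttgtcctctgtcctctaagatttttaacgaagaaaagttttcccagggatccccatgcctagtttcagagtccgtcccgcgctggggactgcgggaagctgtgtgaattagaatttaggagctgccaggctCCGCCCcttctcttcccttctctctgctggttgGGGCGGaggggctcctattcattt
Cxcr3 intron site (chrX:101733401-101733600, minus strand): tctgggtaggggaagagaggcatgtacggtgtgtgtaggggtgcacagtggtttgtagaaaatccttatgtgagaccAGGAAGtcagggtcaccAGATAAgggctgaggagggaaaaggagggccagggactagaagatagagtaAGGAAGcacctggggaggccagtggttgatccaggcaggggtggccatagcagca
Cxcr5 upstream site, intergenic (chr9:44567751-44567950, minus strand): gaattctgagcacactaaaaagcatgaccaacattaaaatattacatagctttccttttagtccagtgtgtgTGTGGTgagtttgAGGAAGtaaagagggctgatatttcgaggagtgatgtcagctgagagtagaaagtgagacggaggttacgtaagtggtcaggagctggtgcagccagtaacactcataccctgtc
Cxcr2 downstream site, intergenic (chr1:74172801-74173000, plus strand): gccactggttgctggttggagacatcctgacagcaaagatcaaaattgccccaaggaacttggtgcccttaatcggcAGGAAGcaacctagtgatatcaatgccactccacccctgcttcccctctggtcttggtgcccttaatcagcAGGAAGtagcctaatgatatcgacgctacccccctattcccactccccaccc
Ccr1 upstream site, intergenic (chr9:123986251-123986450, minus strand): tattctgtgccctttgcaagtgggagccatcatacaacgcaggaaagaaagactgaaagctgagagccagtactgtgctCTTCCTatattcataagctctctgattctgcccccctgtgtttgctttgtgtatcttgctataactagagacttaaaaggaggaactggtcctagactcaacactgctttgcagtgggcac

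These sequences differed in base composition. The Cxcr4 promoter was 60.0% GC, with 19 CpG dinucleotides and a CpG content, observed over expected, of 0.883, which is above 85.3% of protein-coding promoters. It held 3 GC boxes and none of the other motifs; a GC box was found in 39.0% of protein-coding promoters and in 56.6% of open ones. S1pr1 (8 CpG, 0.422) and Ackr3 (7 CpG, 0.402) lay near the median of 0.488, with 2 and 1 GC boxes. The Ackr3 promoter also held a RUNX match, found in 13.0% of protein-coding promoters, and a CCAAT box, found in 36.0%. By contrast the 250 bases before Cxcr3 and before Cxcr5 held no CpG at all. The Cxcr3 intron window printed above held 1 GATA and 2 ETS matches, the Cxcr5 upstream window 1 RUNX and 1 ETS match, and the Cxcr2 downstream window 2 ETS matches. In 300-bp windows about the 49 sites near the receptor genes, ETS matches were in 31 (63.3%), against 44.7% of all 67722 open sites. GATA matches were in 8 (16.3% against 11.8%), RUNX matches in 12 (24.5% against 25.6%) and the CTCF core in 0 (against 7.86%). Neighbouring sites share a locus, 15 of them being near Cxcr5, and a match is a description of letters, not of binding.

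The promoter of Cxcr4 (gene at chr1:128588199-128592293, minus strand) was the most accessible of the 10. In the 1 kb on each side of its start it had 1646 fragments, or 45.4 per 100 cells (43.2 to 47.6), which is above 86.1% of protein-coding promoters. S1pr1 had 20.3 (737 fragments, 18.9 to 21.8) and Ackr3 had 19.1 (694 fragments, 17.7 to 20.6) per 100 cells. Thus the receptors for the retaining signal and for the exit signal, and the CXCL12 scavenger, were all above the median protein-coding promoter, which had 10.5 fragments per 100 cells. Cxcr3 followed with 13.6 (494 fragments, 12.4 to 14.9), above 54.6% of protein-coding promoters; it lies on the X chromosome, of which female cells silence one copy, while the other 9 genes are autosomal.

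**Figure D1:**
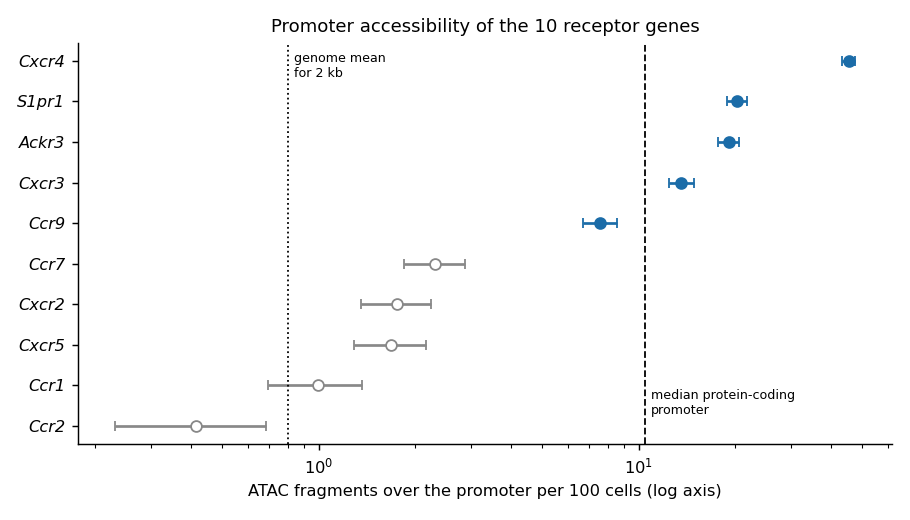
ATAC fragments over the promoter (1 kb on each side of the gene start) per 100 kept cells on a log axis, with 95% counting intervals, for the 10 receptor genes in 3629 cells of 1 sample. Filled points have an open site in the promoter and open points do not; the dashed line is the median protein-coding promoter (10.5) and the dotted line 2 kb at the genome's mean (0.802). Cxcr4, S1pr1, Ackr3 and Cxcr3 lie above the dashed line, Ccr1 (0.992) has an interval that spans the dotted one, and Ccr2 (0.413) lies below it.

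The other receptors were low at their own start. Ccr9, which guides cells to thymus and gut, had 7.58 fragments per 100 cells (6.71 to 8.53). Ccr7, the lymph node receptor of T cells and dendritic cells, had 2.31 (1.85 to 2.87). Cxcr2, the receptor that brings neutrophils out of the marrow, had 1.76 (1.36 to 2.25), and Cxcr5, the B cell follicle receptor, had 1.68 (1.29 to 2.16). These values are for the gene start furthest upstream, and shorter Cxcr5 transcripts that begin 35295 and 35456 bp further in had 3.53 (2.94 to 4.19) and 3.50 (2.92 to 4.16), which would place Cxcr5 above Ccr7. The inflammatory receptors of monocytes came last, Ccr1 with 0.992 (0.695 to 1.37) and Ccr2 with 0.413 (0.231 to 0.682). A 2-kb stretch at the genome's mean would have 0.802, so Ccr2 was below the genome's mean and Ccr1 within counting error of it. The 6 T cell markers ran from 0.0827 (Cd8a) to 4.08 (Lck), with a median of 0.634. Both receptors lay within that range. Ccr1 lies beside a related gene, Ccr1l1, and a loss of fragments that map to more than 1 place was not tested.

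Neighbours in this order mostly differed by more than counting error. Exceptions were S1pr1 over Ackr3, with a log2 ratio of 0.09 (-0.06 to 0.24), Ccr7 over Cxcr2, with 0.39 (-0.09 to 0.88), and Cxcr2 over Cxcr5, with 0.07 (-0.46 to 0.60). Cxcr4 over S1pr1 was 1.16 (1.03 to 1.29) and Ackr3 over Cxcr3 was 0.49 (0.32 to 0.66). S1pr1 and Ackr3 changed places when promoters were cut to 500 bp or when only short fragments were counted. As a ruler, the promoters next to Cxcr4 in level were Ldb1, a partner of GATA and LIM factors, with 1647 fragments, and Tprn, with 1646.

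An open site lay in the promoter of 5 of the 10 genes, Cxcr4, S1pr1, Ackr3, Cxcr3 and Ccr9, while 60.9% of protein-coding promoters had one. The count was 4 to 7 over the other definitions tried, and 6, with Cxcr5 added, when each gene was read at its transcript start with the most fragments. For Ccr9 the label of the promoter is doubtful, because its site is 311 bp inside the gene and 135 bp from the start of Slc6a20a, in a coding exon of that transporter gene. Shorter Ccr9 transcripts that begin 88730 to 88790 bp further in had 11 fragments at their start, or 0.303 per 100 cells (0.151 to 0.542), and another that begins 96101 bp in had 32, or 0.882 (0.603 to 1.24). For Cxcr3 the site is in the gene's intron, with its summit 769 bp from the start, and it is lost when the promoter is cut to 500 bp.

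Per cell these counts were sparse. A fragment at the Cxcr4 promoter was found in 1225 of 3629 cells, or 33.8% (32.2 to 35.3), 892 of them with 1 fragment, 266 with 2 and 67 with 3 or more. S1pr1 had a fragment in 16.8% of cells, Ackr3 in 16.1%, Cxcr3 in 11.3% and Ccr2 in 0.413%. Such shares follow depth: over 4 depth classes of equal size, from the shallowest to the deepest (medians of 7116 and 13788 fragments), the share for Cxcr4 went from 24.3% to 44.5%. In fragments per 1000000 nuclear fragments (FPM) the Cxcr4 promoter gave 47.0, 40.1, 42.1 and 43.0 in these classes, and Cxcr3 gave 10.8, 15.2, 11.3 and 13.4, with no steady rise. A promoter fragment of none of the 10 genes was seen in 36.9% of cells, of 1 gene in 40.3%, of 2 in 17.7%, of 3 in 4.52% and of 4 in 0.524%. A cell without a fragment is not shown to have a closed promoter at this depth.

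Barcodes not called as cells were read as a background level, and what they hold was not tested. There the Cxcr4 promoter had 31.5 FPM (25.3 to 38.8), against 42.8 in kept cells, a ratio of 1.36. For all protein-coding promoters together the ratio was 1.23, and for Cxcr3 it was 1.12 (11.5, with 7.83 to 16.2, against 12.8). S1pr1 stood at 1.34, Ackr3 at 1.44 and Ccr9 at 1.66, and the other 5 receptors ran from 1.09 (Ccr2) to 4.64 (Cxcr2), each from 4 or fewer fragments in these barcodes. S1pr1 had 14.3 FPM (10.2 to 19.5) there and Ccr9 4.29 (2.22 to 7.50). No interval was computed for the ratios, so none is read as different from 1.23. In all, 93.6% of nuclear fragments were in called barcodes.

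The most open receptors also differed in the length of their fragments. Fragments under 100 bp, which come from stretches with no nucleosome, made up 43.9% (40.2 to 47.7) at Ackr3, 37.2% (33.0 to 41.7) at Cxcr3 and 30.5% (27.2 to 34.0) at S1pr1. At Cxcr4 the share was 22.0% (upper bound 24.1), against 33.6% over all protein-coding promoters and 34.1% over the open ones. The Cxcr4 promoter was therefore the most open by fragments and the poorest of these 4 in short ones. Its interval lies below that of each of the other 3. A low share was not particular to Cxcr4: Ccr9, also with an open site in its promoter, had 14.5% (10.6 to 19.3). Receptors with no such site, all with few fragments, ran from 11.5% (Cxcr5) to 22.2% (Ccr1).

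The open site at Cxcr4 was broad. It spanned 3050 bp (chr1:128590601-128593650), wider than 99.0% of the 67722 sites, whose median width was 500 bp. Its summit lay 57 bp before the gene start and reached 174 times the genome's mean, above 91.6% of sites, and it held 1985 fragments from 38.9% of cells. It was the only site within 20 kb of Cxcr4 at this threshold. Ackr3 also had 1 site, of 900 bp and 136 times the genome's mean, with its summit 20 bp inside the gene in the 5′ untranslated part. At S1pr1 the promoter site reached 77.0 times the mean, 22 bp inside the gene, with a second peak of 39.4 times the mean 2072 bp inside and 3 weaker sites. The Cxcr3 site (1600 bp, 66.2 times the mean) held 542 fragments from 12.2% of cells.

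**Figure D2:**
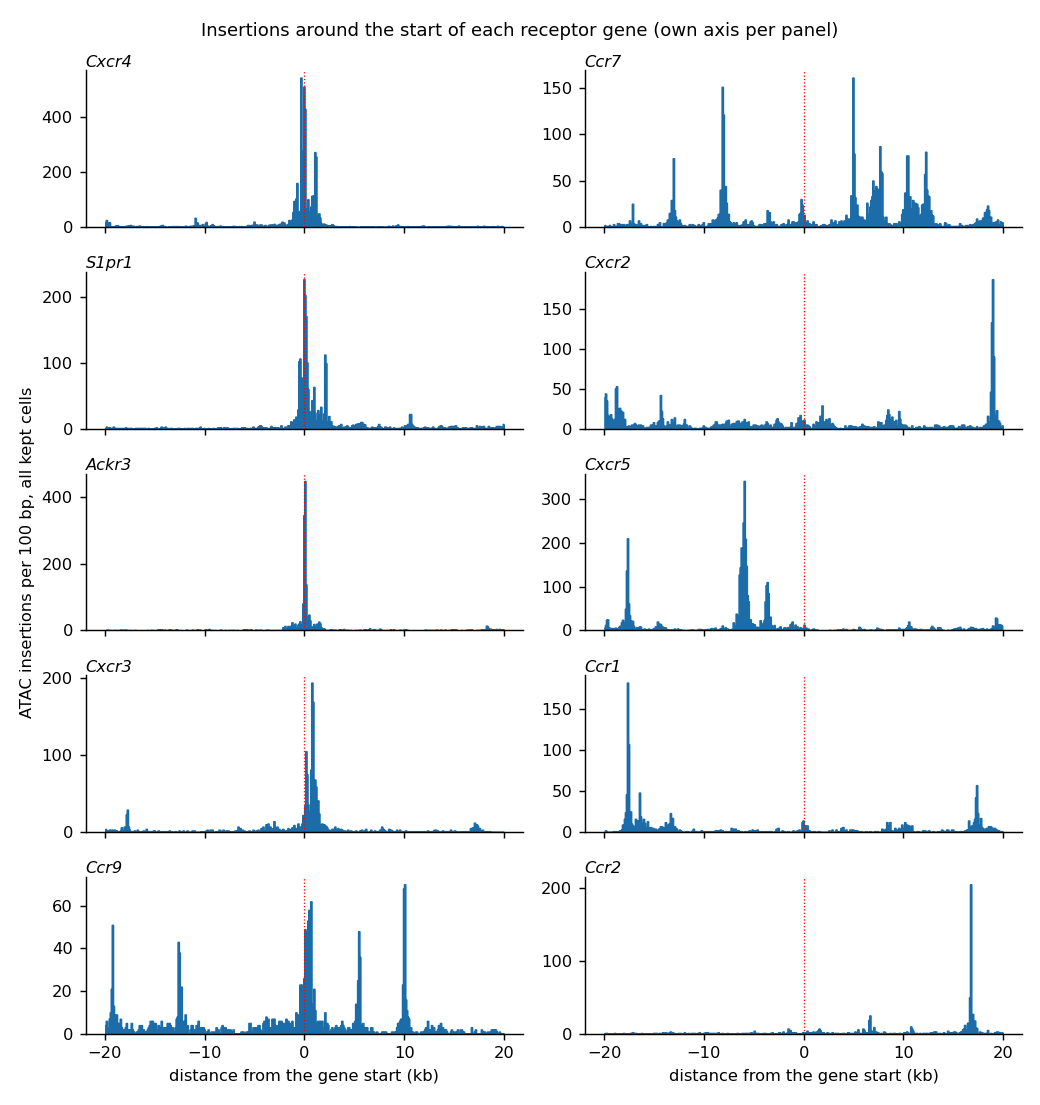
ATAC insertions per 100 bp, summed over 3629 cells, by distance in kb from the start of each of the 10 receptor genes, with positive distances in the direction of transcription. Each panel has its own vertical axis and the dotted line marks the gene start; Cxcr4, S1pr1 and Ackr3 have their main peaks about the line (the highest Cxcr4 bin is centred at -350 bp), Cxcr3 peaks 769 bp inside, and Ccr7, Cxcr2, Cxcr5 and Ccr1 have their peaks away from it.

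Receptors with no open site at the annotated gene start had open chromatin nearby. Cxcr5 had 15 sites within 20 kb, several of them in the next gene, Bcl9l. Its strongest intergenic site lay 5973 bp upstream at 114 times the genome's mean, with 897 fragments (24.7 per 100 cells), against 61 fragments at the annotated gene start and 128 at the Cxcr5 transcript start with the most. A site of 17.7 times the mean lay 68 bp from that transcript start. A site of 48.3 times the mean lay in its intron, 23777 bp from the start. Ccr7 had 8 sites, the strongest 8123 bp upstream (47.5 times the mean, 255 fragments) and in an intron 4977 bp inside (42.5 times, 196 fragments). For Cxcr2 the strongest of 5 sites was 18911 bp after the start, beyond the gene's end (55.4 times, 273 fragments).

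The same held for Ccr1. Of 3 sites near it the strongest was 17658 bp upstream (52.8 times, 223 fragments), which is 7942 bp before the start of Ccr1l1. Short fragments made up 39.5% there. Which gene, if any, such a site serves cannot be read from these data.

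The sum over a gene and 2 kb upstream mixes such sites with the gene. Ccr9 had 2811 fragments by this measure, more than Cxcr4 with 2051, but 1554 were at a site in its intron that reached 266 times the genome's mean, 3 bp before the start of Lztfl1, a gene of cilium transport. Cxcr5 had 2115, S1pr1 994, Ccr7 905, Ackr3 840, Cxcr3 610, Cxcr2 191, Ccr2 122 and Ccr1 63. Per kb of gene, Cxcr4 was above 97.4% of protein-coding genes, S1pr1 above 88.5%, Cxcr3 above 85.7% and Ccr7 above 71.8%, while Ccr9 was above 45.4% and Ccr1 above 26.0%. The length-scaled order thus had Cxcr4, S1pr1 and Cxcr3 on top, which are also the shortest of the 10 genes (4095, 4640 and 2735 bp). Ackr3, with 12772 bp, was above 66.1%.

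The genes these receptors work with were placed on the same scale. Among 14 other chemokine receptors 4 were open, Ccrl2 (11.8 fragments per 100 cells), Ccr10 (8.85), Cxcr1 (8.16) and Ackr1, and the lowest was Ackr4 (0.138). Their median was 0.551, against 4.95 over the 10 receptors described, which include S1pr1. Among the 9 chemokine receptors without it, the middle one was Ccr7 at 2.31. All 4 of the other S1P receptors were open, with S1pr2 highest at 21.6, S1pr4 at 14.8, S1pr3 at 8.85 and S1pr5 lowest at 4.55. Of 16 ligand genes found in the annotation, out of 17 listed, 7 were open, led by Ccl25 (42.4), the ligand of CCR9, Pf4 (19.7), the platelet chemokine, and Cxcl12 (11.7). Starts of other genes close to those of the listed genes were not looked up, so a level may be shared with a neighbour. Ccl19 and Ccl21a were listed at 0 fragments, and Ccl21a belongs to a group of near-identical copies where fragments may not map. Genes that transmit or tune receptor signals, or supply or clear the ligands, were open in 21 of 22, with Cd164 (80.5), a sialomucin that associates with CXCR4, Grk6 (79.4), a kinase that silences active receptors, and Arrb2 (68.1), a beta-arrestin, on top. The lowest of these was Rhoh (5.40), and Sphk1, a kinase that makes S1P, was the one not open. Against the 60.9% of protein-coding promoters that were open, other chemokine receptors were open less often and this last list more often, as a count and not as a test.

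Antibody tags for CD183, the protein of Cxcr3, could be set beside Cxcr3 chromatin in the same cells. The deposited tag of this antibody is shown because it identifies the reads counted:
CD183 tag: cgtcctaggacata
It is 14 bases long, as were those of CD163, CD206 and MERTK, while the other 8 tags were 15; compared from the first base it differed from every other tag at 8 or more positions. The antibodies to CD183, CD163, CD206, MERTK, CD68 and CD106 were conjugated in house, and the entry for CD106 carries the name of CD68. CD183 was rare: 278 tags in all, 0.0766 per cell (0.0679 to 0.0862), with at least 1 tag in 225 of 3629 cells (6.20%) and at least 2 in 26.

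No difference in Cxcr3 chromatin was detectable between CD183-tagged and untagged cells at this depth. Over the gene and 2 kb upstream they had 39 fragments (15.9 FPM) and untagged cells had 571 (15.8 FPM), a log2 ratio of 0.03 (-0.50 to 0.48). The interval stays inside 1.5-fold either way, but not under every setting: the ratio was -0.62 (-2.42 to 0.55) with at least 50 antibody tags, from 5 and 66 fragments, and 0.13 (-0.43 to 0.62) without cells with excess overlaps. At the promoter alone the counts were 33 and 461, with a ratio of 0.10 (-0.48 to 0.59). The 39 fragments came from 31 of the 225 tagged cells. In cells with 1 tag Cxcr3 gave 15.2 FPM (10.5 to 21.4) and in the 26 cells with 2 or more it gave 21.6 (7.94 to 47.1), so the classes overlapped.

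Cxcr4 showed no difference beyond counting error, with 135 fragments (55.2 FPM) in tagged and 1916 (53.1) in untagged cells and a log2 ratio of 0.06 (-0.21 to 0.31). Its level was 50.2 FPM (41.2 to 60.6) with 1 tag and 93.8 (61.3 to 137) with 2 or more. That last value rests on 26 fragments in 16 of 26 cells, 5 of them in 1 cell, and its interval lies above that of untagged cells (50.8 to 55.6). In the same 26 cells Cxcr5 was lower, with 6 fragments and a log2 ratio of -1.22 (-2.79 to -0.21) to untagged cells. At this cut 35.9% of 25377 genes were past 1.5-fold, and 5 of the 10 receptor genes. S1pr1 stood at 0.10 (-0.29 to 0.45), Ackr3 at 0.03 (-0.41 to 0.42), and Ccr7 was lowest at -0.33 (-0.80 to 0.09). The Ccr7 interval left out 0 without the deepest 5% of cells (-0.51, -1.06 to -0.04), without cells with excess overlaps (-0.48, -1.03 to -0.01) and when insertions were counted (-0.32, -0.64 to -0.02). It took in 0 in the other settings. The Ccr7 ratio was above 0 with at least 50 antibody tags (0.13, -0.92 to 0.96) and with 2 or more CD183 tags (0.18, -1.23 to 1.13). At the promoter it was 0.03 (-1.76 to 1.18), and in cells with 20 to 40 other tags -0.52 (-1.27 to 0.09). In all, 0 of the 10 receptor genes were past 1.5-fold either way, while 11.3% of 25522 genes with at least 20 fragments were. Among the 7 with at least 200 fragments it was 0 as well, against 1.96% of 19707 genes.

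**Figure D3:**
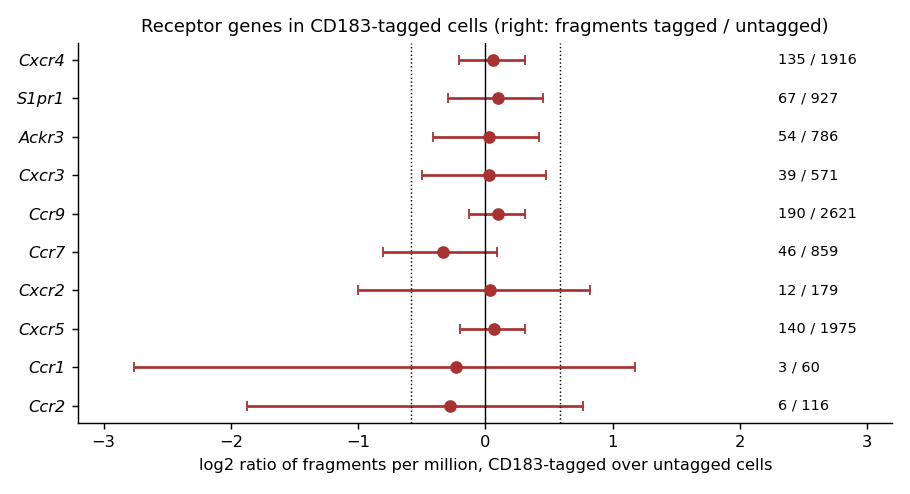
Log2 ratio of ATAC FPM over each receptor gene and 2 kb upstream, in 225 CD183-tagged against 3404 untagged cells of 1 sample, with 95% counting intervals. Numbers at the right are fragments in tagged and untagged cells, and dotted lines mark 1.5-fold; every interval takes in 0, including those of Cxcr3 (-0.50 to 0.48) and Cxcr4 (-0.21 to 0.31).

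Single sites gave 2 intervals that left out 0 among the 49, while 4.31% of all 67722 open sites did. The site 8123 bp upstream of Ccr7 had 26 fragments in tagged and 229 in untagged cells, a log2 ratio of 0.77 (0.10 to 1.33). An intron site of Bcl9l near Cxcr5 had 22 and 586, a ratio of -0.82 (-1.54 to -0.24). At the Cxcr3 site the ratio was -0.19 (-0.80 to 0.32) and at the Cxcr4 site 0.07 (-0.20 to 0.32).

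CD183-tagged cells were richer in other tags, as was the higher group of every other antibody. They had a mean of 34.1 tags of the other antibodies against 31.3 in untagged cells, and 5.15 against 4.29 tags that match no antibody. For P2X7R the means of other tags were 33.2 and 29.7, and for CD201 33.7 and 29.9. All groups were set on raw tag counts, not scaled by the tags of a cell. Among the other antibodies conjugated in house the mean was 3.54-fold higher for CD68 (0.342 against 0.0967 per cell), 2.24-fold for CD163, 1.96-fold for MERTK, 1.39-fold for CD106 and 1.16-fold for CD206. For the rest it ran from 1.02-fold (CD201) to 1.23-fold (P2X7R). The CD163 and CD68 means rest on few cells, since a CD163 tag was in 2.22% of tagged and 1.94% of untagged cells and a CD68 tag in 13.8% and 7.34%, with up to 25 CD68 tags in 1 cell. A MERTK tag was in 50.7% and 39.6%, with up to 64 in 1 cell. The share with a CD183 tag was 5.60%, 5.46%, 5.92% and 7.87% in 4 classes of cells from the fewest to the most other tags. Nuclear fragments were alike, with medians of 10571 and 10268. The part of non-specific tags in the CD183 class was not tested.

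The other antibodies were read the same way, as tagged against untagged cells for CD27, CD68, CD106, CD163, CD201, CD206, P2X7R and MERTK, and as above against at or below the median count for CD61, CD274 and CD357. Excess overlaps were more frequent above the median, with 9.56% against 4.71% of cells for CD61. For CD274 the shares were 9.49% and 4.68%, and for CD357 10.1% and 5.08%. Over the gene and 2 kb upstream, no receptor gene was past 1.5-fold for CD27 (3.60% of all genes), CD61 (3.70%), CD106 (4.65%), CD201 (4.20%), CD274 (4.25%) or MERTK (3.53%). Ccr1 alone was past it for CD68 (9.70% of all genes), CD163 (21.4%), CD357 (3.74%) and P2X7R (3.78%). Ccr1 had only 63 fragments in all, its directions differed (2 against 61 fragments for CD68, 0 against 63 for CD163, 31 against 32 for CD357 and 30 against 33 for P2X7R), and its interval took in 0 each time.

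CD206, the mannose receptor of macrophages, gave the largest ratio at Cxcr3. The 82 CD206-tagged cells had 26 Cxcr3 fragments (30.1 FPM) and untagged cells 584 (15.5), a log2 ratio of 0.98 (0.33 to 1.52), and at the promoter 25 and 469, with a ratio of 1.24 (0.57 to 1.79). The 26 fragments came from 17 cells, with at most 3 in 1 cell. Without the deepest 5% of cells the ratio was 0.77 and its interval took in 0 (-0.01 to 1.39). Cxcr2 (0.82, -0.61 to 1.80) and Ccr2 (-0.90, -6.79 to 1.03) were also past 1.5-fold, from 7 and 1 fragments in the tagged cells. So 3 of 10 receptor genes passed where 20.5% of all genes did. CD206 tags numbered 84 in all, and mean other tags were 34.6 in tagged and 31.4 in untagged cells. The part of non-specific tags in this difference was not tested.

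The study's surface panel for platelet-biased (PLT) and multi-lineage (MUL) HSCs was applied with cuts set at the medians of these cells: CD61 and CD274 above and CD357 and CD27 at or below for PLT (342 cells), and the opposite for MUL (61 cells). Excess overlaps were in 6.73% of PLT and 1.64% of MUL cells, and the gates were not matched for this. Median nuclear fragments were 10101 and 9771. Cxcr4 had 205 fragments (57.9 FPM) in PLT and 43 (71.6) in MUL cells, a log2 ratio of -0.32 (-0.79 to 0.20). Cxcr3 had 66 and 8, with 0.41 (-0.58 to 1.75), so neither difference was beyond counting error. Past 1.5-fold were Cxcr2 (24 and 1 fragments, 1.47, -0.59 to 7.39) and Cxcr5 (189 and 20, 0.65, 0.01 to 1.42), 2 of the 8 receptor genes with enough fragments, where 16.3% of all genes passed. The Cxcr5 interval took in 0 without the deepest 5% of cells (0.52), without cells with excess overlaps (0.42) and when scaled by fragments in all promoters (0.64). With at least 50 tags the ratio turned to -2.40 (-4.22 to -1.15), from 5 and 34 fragments, so no direction is read for Cxcr5. Ccr9 was at -0.51 (-0.93 to -0.04), from 230 and 55 fragments, a sum that includes the start of Lztfl1.

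Over all 13 groupings, 9 of 128 ratios of receptor genes with enough fragments had an interval that left out 0. That is 7.03%, and over all genes it was 6.62%. Beside Cxcr3 with CD206 and Cxcr5 and Ccr9 between the gates these were Cxcr2 with CD27 (-0.43) and CD106 (-0.53), Cxcr5 with CD274 (0.16) and P2X7R (0.14), Ackr3 with CD357 (0.22) and S1pr1 with P2X7R (0.20). Cxcr4 had none, with ratios from -0.12 (CD106) to 0.19 (CD206) over the 12 antibodies. Under the alternatives its ratio was -0.47 (-0.86 to -0.06) for CD27 with at least 50 tags, and the intervals for CD106 (-0.12), CD274 (0.09) and P2X7R (-0.10) left out 0 when insertions were counted. A fragment gives 2 insertions that are not independent, so intervals over insertions are too narrow. Without the deepest 5% of cells, 3 of the 9 intervals still left out 0, those of Cxcr2 with CD106, Cxcr5 with CD274 and Ccr9 between the gates. With at least 50 antibody tags 2 of the 9 did, Ackr3 with CD357 and, with its direction turned, Cxcr5 between the gates. Cxcr2 with CD106 was then at 0.69 (-0.90 to 2.22) and Cxcr5 with CD274 at -0.30 (-0.67 to 0.05), both with the other sign. At promoters alone it was 7 of 113 (6.19%), against 5.79% over all genes. These were Cxcr3 with CD206, Cxcr2 with CD201 (0.99, 0.23 to 1.74), Ccr7 with CD61 (-0.69, -1.40 to -0.03), Ccr9 with CD68 (-1.12, -2.26 to -0.29) and CD357 (-0.46), Ackr3 with CD357 (0.24) and S1pr1 with P2X7R (0.24). Both pairs of shares are close, so no grouping is read as a result about the receptors as a set.

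**Figure D4:**
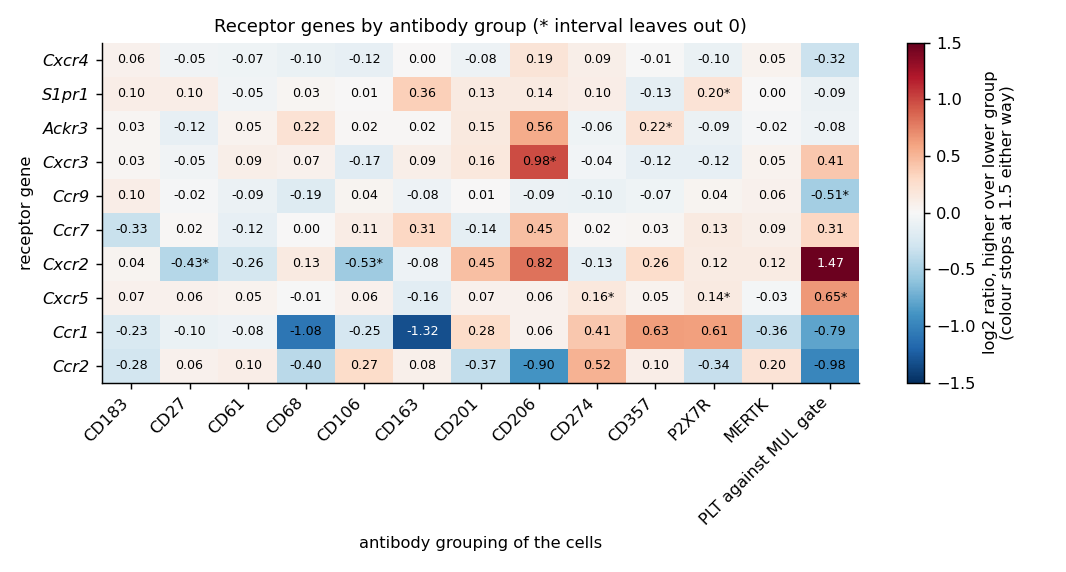
Log2 ratio of ATAC FPM over the gene and 2 kb upstream, higher over lower group, for each receptor gene (rows) and each of 13 groupings of the cells by antibody tags (columns). Red is higher and blue is lower, colours stop at 1.5 either way, and a star marks a 95% counting interval that leaves out 0; Cxcr3 with CD206 (0.98) is starred, and the Cxcr4 row has no star.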

How the data were processed

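HSCs of 1 preparation were profiled by DOGMA-seq. The authors mapped the ATAC and RNA reads to mm10 with Cell Ranger ARC 2.0.2; the deposited fragment file holds counts, 1 line per unique fragment, with ends shifted for the transposase. The deposited tag counts per cell came from CITE-seq-Count (version not given in the sources used here), and a deposited table per barcode holds the cell calls with counts of fragments and RNA molecules.

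From these files, fragments on nuclear chromosomes were counted in cells with at least 10 tags, over promoters (1000 bp on each side of the gene start, GENCODE M21), and over genes plus 2 kb upstream. Insertions in 200-bp windows at 50-bp steps, at least 10 times the mean and merged over gaps of up to 100 bp, made open sites. Levels have exact Poisson intervals, shares exact binomial (Clopper-Pearson) ones, and ratios conditional binomial ones. Log2 ratios were scaled by nuclear fragments, with 0.5 added to each count; called means 1.5-fold with at least 20 fragments in both groups together. Doublets were marked by excess overlaps (3 fragments at a place, adjusted p cut of 0.01) and not removed. Python 3.11.15, numpy 2.4.6, scipy 1.17.1 and pandas 2.3.3 were used, and the ratios were tested on simulated data.

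The receptor genes, gene lists, motifs and marker lists were chosen with earlier results of these data known. The named genes are the 10 receptors, the 3 highest and the lowest of each list, and the genes next to Cxcr4 in level. Ackr1, S1pr3, S1pr4, Sphk1, Mecom, Lck, Cd8a, Ccl19, Ccl21a and genes at open sites were named after their values were seen. Alternatives were other cell filters, promoters, site thresholds, scalings and tag cuts. A locus is not reported here. No column of another series was used (0).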

Additional observations from a re-analysis of the deposited data

Results flagged for a closer look

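The 645 called cells without antibody counts entered no comparison. Together these cells held 1282313 nuclear fragments, against 38498362 in the 3629 kept cells, so they were shallower per cell. At the Cxcr4 promoter they had 70 fragments, or 54.6 fragments per 1000000 nuclear fragments (FPM), against 42.8 in the kept cells, and at Cxcr3 they had 8, or 6.24 against 12.8 FPM. Ackr3 had 23 (17.9 against 18.0 FPM), S1pr1 22 (17.2 against 19.1), Ccr9 9 (7.02 against 7.14), Cxcr2 5 (3.90 against 1.66) and Cxcr5 4 (3.12 against 1.58). Ccr7 had 1 fragment, and Ccr1 and Ccr2 had 0. The counts of 4 and above were singled out as data outside the main measurement with a signal above the limit that a count of 0 allows. No interval was computed for these levels, so no difference is read from them.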

How the results depend on the processing

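Open sites near the receptor genes numbered 74 at 5 times the genome's mean and 27 at 20 times, against 49. The count of open promoters moved between 4 and 7 and stayed within 1.5 times the main count. At CD183, 1 receptor gene instead of 0 was past 1.5-fold with at least 50 tags, without the deepest 5% of cells, without cells with excess overlaps, and with promoters only, and 5 were with a cut of 2 or more tags (26 cells). Over all genes, those past it in these settings were 3807 of 20057, 3022 of 25238, 2977 of 25155 (11.8%), 3063 of 20664 (14.8%) and 9101 of 25377 (35.9%). Cxcr3 then moved from 0.03 to -0.62 with at least 50 tags (37 tagged cells) and to 0.56 with the cut of 2, and Cxcr4 to 0.85 with that cut. The Cxcr5 ratio between the gates turned to -2.40 (-4.22 to -1.15) with at least 50 tags, where the medians were set anew, and to -0.24 (-2.71 to 5.74) with promoters only; the cause was not tested, and both rest on few fragments. Reversal was counted only for ratios past 1.5-fold with an interval that left out 0, and sign changes of smaller ratios were not. Of 1033 values recomputed under alternatives, 2 reversed in this sense and 144 moved by more than their counting interval or, for counts, 1.5 times. No paired analysis was possible because each assay had 1 library. No replicate could be left out. Depth limits the CD183 comparison, since its tagged cells held 2447432 of the nuclear fragments, 39 of them at Cxcr3.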
